A study of Mus musculus with 48 samples.

Results

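Complement is a set of blood and tissue proteins that tag material for removal and call in immune cells, and 10 of its genes are described here in the dentate gyrus during the first 2 weeks after an intrahippocampal kainate injection. They are the 3 chains of the recognition protein C1q (C1qa, C1qb and C1qc), the proteases C1ra and C1s1 that C1q carries, the components C3 and C4b, the receptors C3ar1 and C5ar1, and the inhibitor Serping1. They were found by symbol in the deposited count table, as 10 of its 55357 genes, and all 10 passed the filter on low counts that left 21390 genes for testing.

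RNA came from the dorsal dentate gyrus of 24 wild-type C57BL/6J mice, aged 6 to 8 weeks by the sample records and slightly older by the study's methods. Each mouse received 1 injection into the hippocampus of 1 side, either kainate, a glutamate receptor agonist that brings on status epilepticus, or saline. The injected side is called the epileptogenic zone (EZ) and the opposite side the peri-ictal zone (PIZ), and both were sequenced from every mouse at day 3, 7 or 14, which gave 48 libraries in 12 groups of 4. The 4 mice of a group were 2 males and 2 females, but the sample records do not tie sex to a library, and per the study's methods the kainate mice had shown a behavioral seizure. All controls also carried an injection, so no library shows tissue without surgery, and the PIZ is the uninjected side of an injected animal.

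Library totals lay between 17762656 and 25712975 counts. Prox1 and 5 other granule cell markers summed to 166 to 1126 CPM (counts scaled to the same effective library size) over the 48 libraries, whereas the 6 markers of CA pyramidal neurons summed to 113 to 758 CPM, and the source of the latter was not tested. The EZ library of kainate mouse 27 stood apart from the other 3 of its group at day 14 in almost every member, and calls for the EZ at day 14 are given with and without it. Because these are pieces of tissue, more cells of a type and more RNA per cell cannot be told apart.

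The classical route of complement begins when C1q binds its target and the proteases C1r and C1s cut C4 and C2, and all routes meet at C3. Fragments of C3 coat the target, the small fragments C3a and C5a act on the receptors encoded by C3ar1 and C5ar1, and C1 inhibitor, encoded by Serping1, blocks C1r and C1s. In the brain, microglia are the main source of C1q and carry the complement receptors, reactive astrocytes are a known source of C3 and C4, and the C1q and C3 proteins tag synapses for removal.

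The 3 C1q genes lie side by side on chromosome 4 of GRCm39 on the minus strand, C1qb at 136606009 to 136613511, C1qc at 136616466 to 136620376 and C1qa at 136623223 to 136626161, within 20153 bases. C4b (chromosome 17, 34947354 to 34962912) and C3 (chromosome 17, 57510964 to 57535155) are far apart on another chromosome, also on the minus strand. C1ra (chromosome 6, 124489364 to 124500402, plus strand) and C1s1 (124507297 to 124559389, minus strand) are neighbors with 6894 bases between them, and C3ar1 lies on the same chromosome at 122823393 to 122833122. C5ar1 is on chromosome 7 at 15980668 to 15993465 and Serping1 on chromosome 2 at 84595705 to 84620873.

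The 150 bases before the annotated start of 5 of these genes are shown, the C1q genes because they are neighbors that rose together, and C3 and C4b because they stayed called in the EZ at day 14 without the library that stood apart. They were read from GRCm39 at the canonical start of Gencode M39 and are written 5′ to 3′ on the strand of the gene, and capitals mark the matches to the motifs named after them.
C1qa, chr4:136626162-136626311: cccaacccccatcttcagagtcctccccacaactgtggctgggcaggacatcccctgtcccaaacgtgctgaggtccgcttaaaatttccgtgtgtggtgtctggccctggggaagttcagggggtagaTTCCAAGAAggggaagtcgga
C1qb, chr4:136613512-136613661: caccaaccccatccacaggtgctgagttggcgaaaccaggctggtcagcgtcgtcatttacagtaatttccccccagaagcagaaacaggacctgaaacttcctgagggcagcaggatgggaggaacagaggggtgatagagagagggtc
C1qc, chr4:136620377-136620526: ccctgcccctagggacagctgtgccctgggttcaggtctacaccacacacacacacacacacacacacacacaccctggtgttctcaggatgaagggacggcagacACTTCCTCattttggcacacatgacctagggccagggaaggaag
C3, chr17:57535156-57535305: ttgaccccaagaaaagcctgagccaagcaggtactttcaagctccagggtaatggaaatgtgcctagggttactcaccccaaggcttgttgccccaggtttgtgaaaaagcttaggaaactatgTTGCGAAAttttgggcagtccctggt
C4b, chr17:34962913-34963062: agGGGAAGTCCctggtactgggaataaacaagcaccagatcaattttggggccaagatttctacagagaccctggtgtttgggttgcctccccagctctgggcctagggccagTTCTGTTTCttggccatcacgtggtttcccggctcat

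Short motifs were searched on both strands in the 250 bases before the start of 21627 protein-coding genes. The STAT motif TTCNNNGAA stood in C1qa, 21 to 13 bases before the start, and in 7.73% of all these promoters. The PU.1 motif GAGGAAGT stood in C1qc (2.09% of promoters), the C/EBP motif TTGCNNAA in C3, C1ra and C1s1 (9.37%), and the NF-kB motif GGNNTTNCC (13.7%) and the IRF motif GAAANNGAA (7.55%) in C4b, the latter also in C5ar1. TATAAA was in C3ar1 alone of the members and in 11.9% of promoters, and C1qb and Serping1 held none of the 6 motifs. In the window shown, no motif was shared by the 3 C1q genes, and the match in each is a description of letters, not of binding.

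At baseline the members differed widely in level. Over all saline libraries, and per kilobase of the canonical transcript, C1qa averaged 42.5 CPM per kb, above 93.2% of the genes ranked, with C1qc at 23.9 and C1qb at 22.4. C4b followed at 8.29 and Serping1 at 3.70 CPM per kb, near the middle of all genes. C3ar1 (0.583), C1ra (0.503), C1s1 (0.343), C5ar1 (0.297) and C3 (0.169 CPM per kb, above 7.7% of the genes) were low. These are levels per length, and the lengths are those of Gencode M39. Neighbors in this order had overlapping ranges over the saline libraries, except Serping1 and C3ar1.

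**Figure D1:**
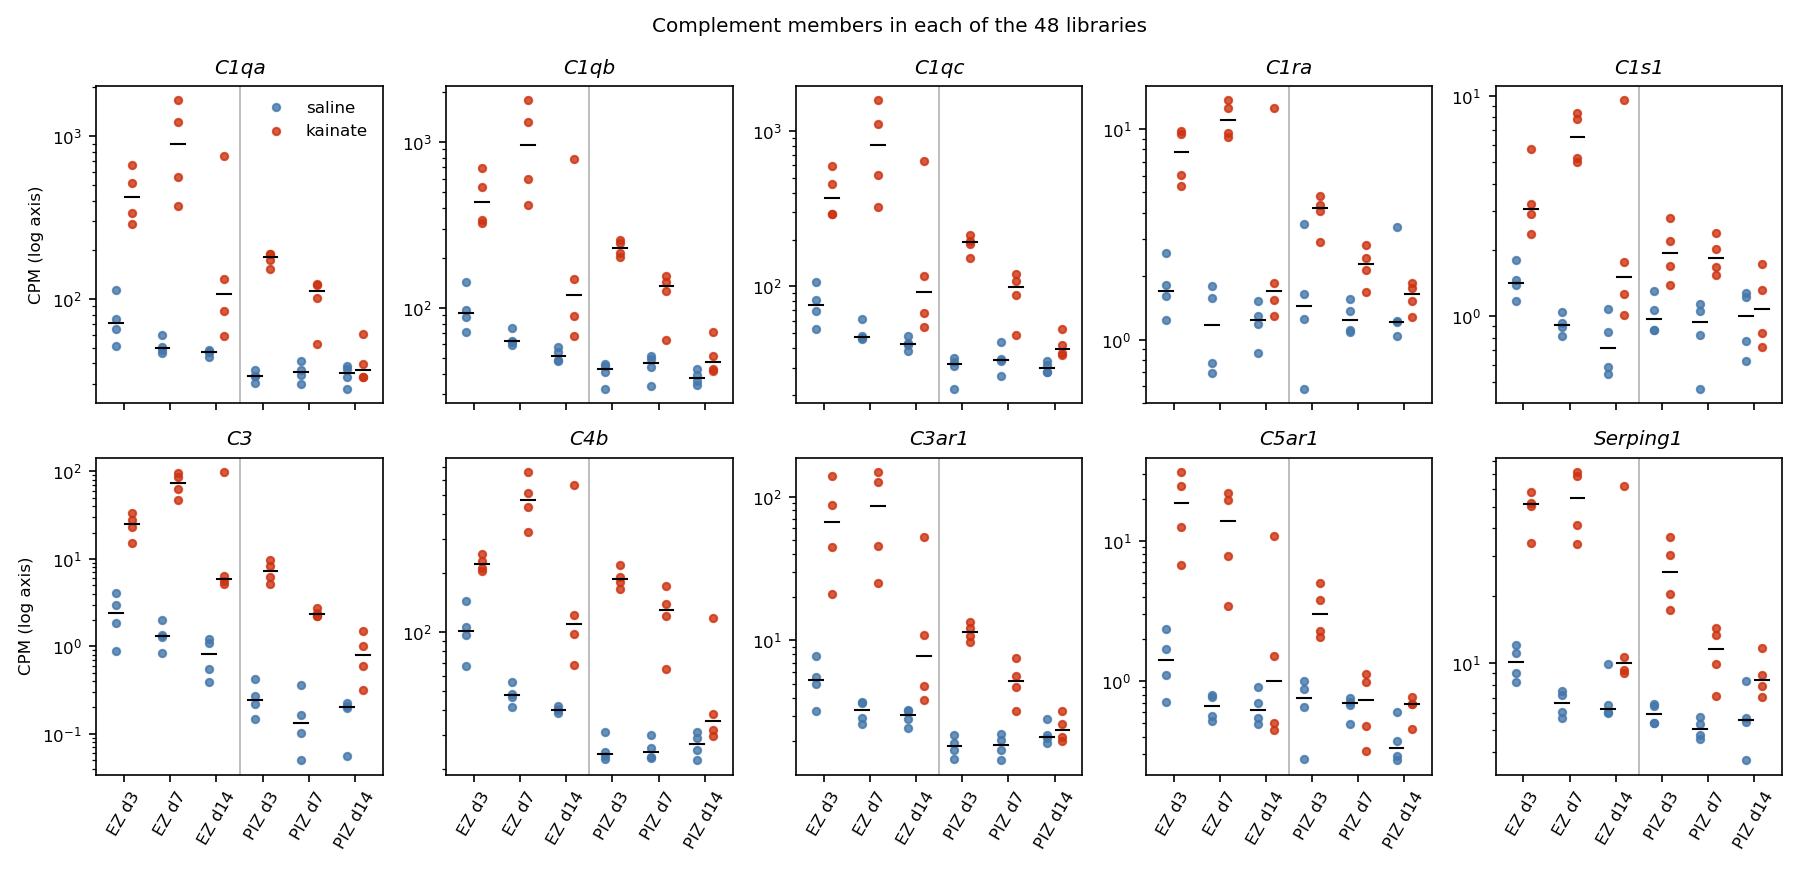
CPM of each member (log axis) in every library by zone and day, with blue points for saline mice, red points for kainate mice and a black bar at the median of 4. Kainate libraries of the EZ lay above the saline libraries for all 10 members at days 3 and 7, and at day 14 the highest point of each member in the EZ was mouse 27.

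At day 3 in the EZ, 8 of the 10 members were upregulated as differentially expressed genes (DEG), which required more than a 1.5-fold difference and an adjusted p below 0.01 in edgeR's quasi-likelihood test. For comparison, 16.1% of all genes tested were upregulated DEG. All 4 kainate libraries lay above all 4 saline libraries in 10 of 10 members, which held for 23.9% of all genes. The members' median log2 fold change was 2.33, beside 0.0323 over all genes, and the medians and counts are descriptions of genes chosen with earlier results of these data known.

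Among the C1q chains, C1qa was at 51.2, 65.4, 75.6 and 113 CPM in the saline mice and at 289, 336, 514 and 670 CPM in the kainate mice of the EZ at day 3. The lowest kainate value was above the highest saline value, and the log2 fold change was 2.57 (adjusted p = 3.13e-05, SE 0.47). C1qb and C1qc rose by 2.24 and 2.39 on the log2 scale. Over all 48 libraries the shares of the chains stayed narrow, with C1qa at 44.9% to 53.1% of the summed CPM per kb of the chains, C1qb at 22.1% to 27.1% and C1qc at 22.5% to 30.1%.

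Of the proteases, C1ra rose from 1.25, 1.61, 1.81 and 2.57 CPM in saline mice to 5.36, 6.02, 9.47 and 9.79 CPM in kainate mice of the EZ at day 3 (log2 fold change 2.08, adjusted p = 0.00045, SE 0.47). C1s1 had saline values of 1.17 to 1.80 CPM and kainate values of 2.37 to 5.78 CPM, without overlap, but at a log2 fold change of 1.29 (SE 0.42) and an adjusted p = 0.0101 it was just outside the rule.

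C3 was at 0.883, 1.84, 2.97 and 4.09 CPM in saline mice and at 15.3, 23.1, 27.6 and 33.1 CPM in kainate mice of the EZ at day 3, a log2 fold change of 3.34 (adjusted p = 2.41e-05, SE 0.60). C4b moved less. It was at 67.3, 96.7, 106 and 145 CPM in saline mice and at 205, 214, 232 and 252 CPM in kainate mice, and its log2 fold change of 1.12 (adjusted p = 0.0182, SE 0.39) was the smallest of the members and did not pass.

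The receptors had the largest log2 fold changes of the 10 members in the EZ at day 3. C3ar1 was at 3.22, 4.93, 5.60 and 7.79 CPM in saline mice and at 21.1, 44.8, 87.2 and 140 CPM in kainate mice (log2 fold change 3.76, adjusted p = 1.69e-06, SE 0.56). C5ar1 was at 0.706, 1.11, 1.71 and 2.34 CPM in saline mice and at 6.69, 12.5, 24.4 and 30.9 CPM in kainate mice (log2 fold change 3.67, adjusted p = 1.17e-05, SE 0.62). In both genes mouse 38 was the highest kainate library and mouse 44 the lowest. Serping1 rose from 8.26, 9.04, 11.1 and 12.1 CPM to 34.4, 50.4, 52.1 and 58.2 CPM, a log2 fold change of 2.27 (adjusted p = 1.16e-05, SE 0.39).

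At day 7 in the EZ all 10 members were upregulated DEG, against 20.6% of all genes, and in 10 of 10 the groups did not overlap, against 23.7% of genes. The members' log2 fold changes ran from 2.84 to 5.73 with a median of 4.05, beside 0.0109 over all genes. The largest belonged to C3, which was at 0.848, 1.29, 1.35 and 1.99 CPM in saline mice and at 47.2, 62.5, 85.3 and 95.2 CPM in kainate mice (log2 fold change 5.73, adjusted p = 2.86e-08, SE 0.67).

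C1qa was at 46.2 to 60.2 CPM in the saline mice and at 373, 565, 1216 and 1662 CPM in kainate mice 23, 26, 35 and 21 of the EZ at day 7 (log2 fold change 4.21, adjusted p = 3.56e-08, SE 0.50). The same order of mice was seen in the other members except C1ra, in which mouse 21 was again highest but mouse 35 lowest. C4b, which had moved less than the other members at day 3, was at 41.4, 46.8, 48.7 and 55.7 CPM in saline mice and at 327, 435, 515 and 658 CPM in kainate mice (log2 fold change 3.33, adjusted p = 6.75e-08, SE 0.43).

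The kainate mice of the EZ at day 7 spread most in the receptors and the C1q chains. C3ar1 ran from 25.1 to 148 CPM and C5ar1 from 3.42 to 22.0 CPM, so the highest mouse was 5.90 and 6.45 times the lowest, and in C1qa, C1qb and C1qc it was 4.45, 4.28 and 4.87 times. In the other 5 members it was 1.49 times (C1ra, 9.17 to 13.7 CPM) to 2.10 times (Serping1, 34 to 71.5 CPM). The log2 fold changes were 4.75 (SE 0.59) for C3ar1, 4.31 (SE 0.67) for C5ar1, 3.22 (SE 0.50) for C1ra, 2.84 (SE 0.44) for C1s1 and 3.02 (SE 0.40) for Serping1.

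**Figure D2:**
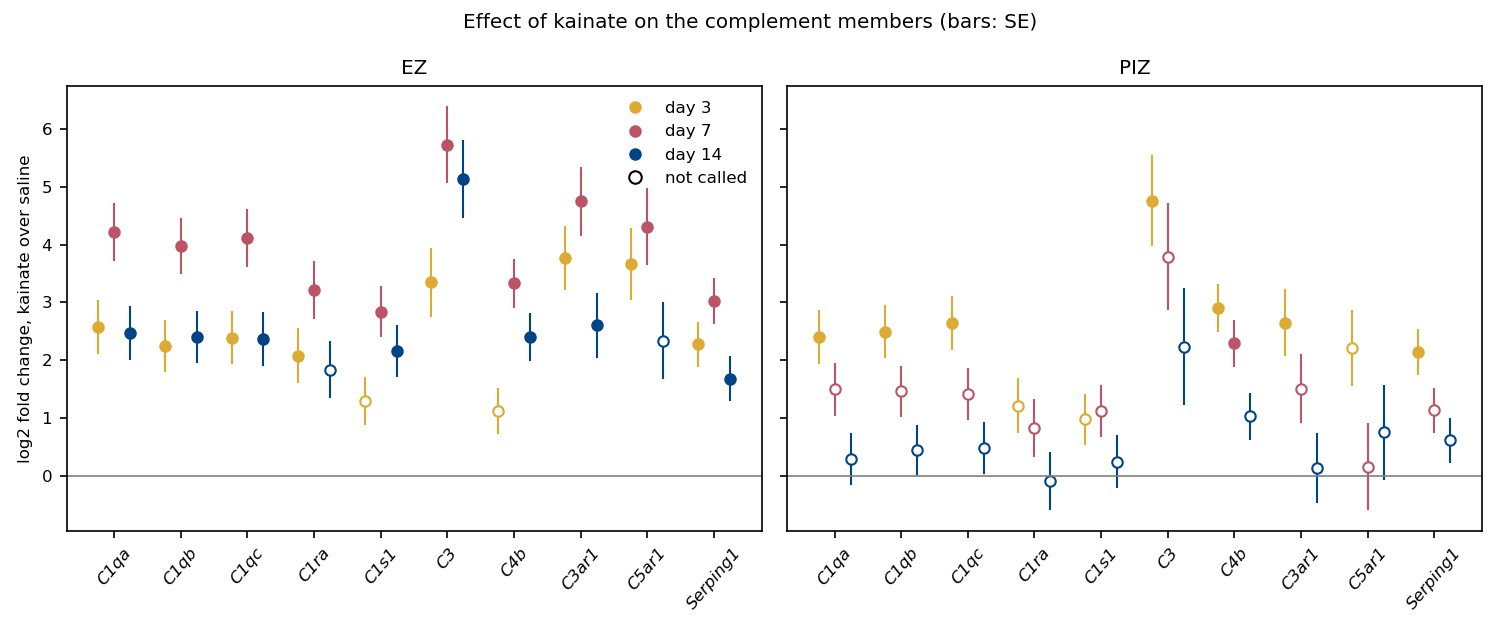
Log2 fold change of kainate over saline for each member in the EZ (left) and PIZ (right), with SE bars and a color for each day, and open symbols where the rule for a DEG was not met. In the EZ the day 7 point is the highest for each member, from 2.84 to 5.73, and in the PIZ only C4b has a filled symbol at day 7.

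At day 14 in the EZ, 8 members were upregulated DEG, against 2.32% of all genes, and in 6 of 10 members the groups did not overlap, against 4.58% of genes. C1ra (adjusted p = 0.02) and C5ar1 (adjusted p = 0.0308) did not pass. C1qa was at 43.8, 47.2, 47.2 and 48.1 CPM in saline mice and at 58.7, 83.6, 132 and 755 CPM in kainate mice, and the last of these was mouse 27. C3 showed the same mouse apart, with 5.14, 5.62, 6.31 and 98.5 CPM in kainate mice against 0.394 to 1.22 CPM in saline mice. Mouse 27 was also highest in the PIZ at day 14 for 10 of 10 members, by a wide margin in C4b, where it was at 119 CPM and the other 3 kainate mice at 29.6 to 38.4 CPM.

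Without mouse 27, 2 members remained DEG in the EZ at day 14, among 7 genes called of 21688 tested in that fit (0.0323%). They were C3, at a log2 fold change of 2.79 (adjusted p = 8.09e-05, SE 0.38), and C4b, at 1.25 (adjusted p = 0.00793, SE 0.22). C1qa fell from a log2 fold change of 2.47 to 0.97 (adjusted p = 0.468), C3ar1 from 2.60 to 1.15 and Serping1 from 1.68 to 0.44. The number of members called was also 3 without saline mouse 24, 2 without saline mouse 31, 2 without saline mouse 39 and 4 without saline mouse 28, and 10, 10 and 9 without kainate mice 14, 36 and 40. In the fits without a saline mouse the share of all genes upregulated was 0.138% (mouse 31) to 0.626% (mouse 28), and was 3.81%, 4.05% and 3.52% without kainate mice 14, 36 and 40. In each of these fits that left out 1 mouse C3 and C4b were among those called, but with only the 2 groups compared in the fit both were lost (adjusted p = 0.56 each) and 0 of all genes were called.

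**Figure D3:**
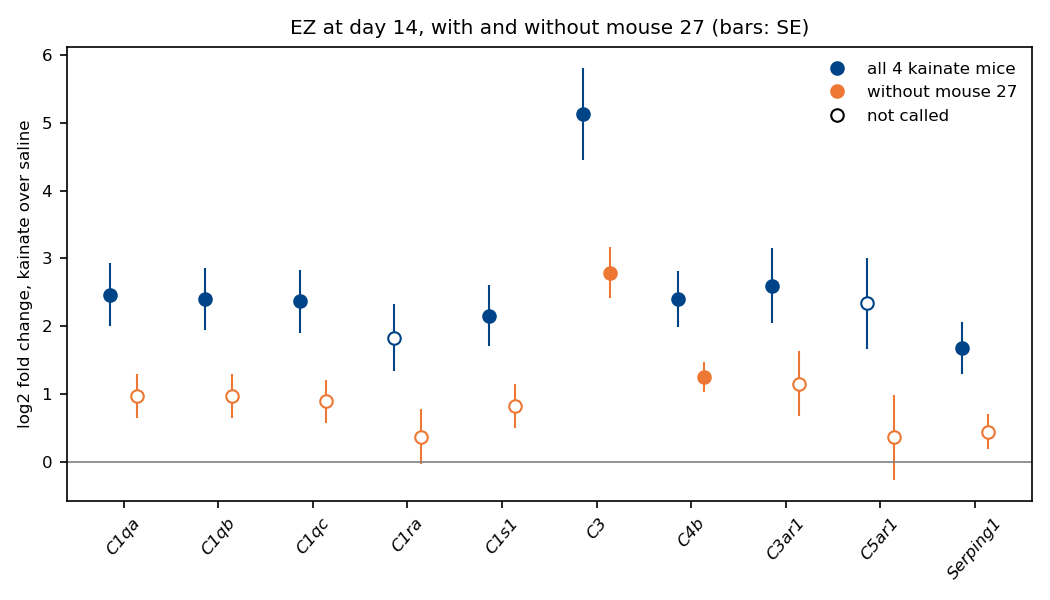
Log2 fold change of kainate over saline in the EZ at day 14 for each member with all 4 kainate mice (blue) and without mouse 27 (orange), with SE bars and open symbols where the rule for a DEG was not met. All 10 values are lower without mouse 27, and C3 and C4b keep filled symbols at 2.79 and 1.25.

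In the PIZ at day 3, 7 members were upregulated DEG, against 7.12% of all genes, and the groups did not overlap in 9 of 10 members, against 17.1% of genes. The 7 were C1qa, C1qb, C1qc, C3, C4b, C3ar1 and Serping1. C1qa was at 30.2, 33.3, 33.6 and 36.5 CPM in saline mice and at 152, 173, 188 and 188 CPM in kainate mice, a log2 fold change of 2.39 (adjusted p = 0.000289, SE 0.47). C1qb and C1qc had log2 fold changes of 2.49 and 2.65.

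C3 had the largest value of the PIZ at day 3, from 0.146, 0.217, 0.273 and 0.418 CPM in saline mice to 5.17, 6.14, 8.35 and 9.59 CPM in kainate mice (log2 fold change 4.76, adjusted p = 3.28e-05, SE 0.78). The saline values rest on 3 to 9 counts of C3 per library, so the size of this change is uncertain. C4b had the smallest adjusted p, with 22.6, 23.5, 24.5 and 31.1 CPM in saline mice and 167, 182, 192 and 220 CPM in kainate mice (log2 fold change 2.90, adjusted p = 6.21e-06, SE 0.42). C3ar1 rose from 1.49 to 2.19 CPM to 9.75 to 13.3 CPM (log2 fold change 2.64, SE 0.58) and Serping1 from 5.38 to 6.54 CPM to 17.2 to 36.5 CPM (log2 fold change 2.14, SE 0.39).

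The members that did not pass in the PIZ at day 3 were the proteases and C5ar1. C1ra was at 0.583 to 3.53 CPM in saline mice and at 2.91 to 4.83 CPM in kainate mice, which overlap (log2 fold change 1.21, adjusted p = 0.0615, SE 0.48). C1s1 had a log2 fold change of 0.98 (adjusted p = 0.102, SE 0.44) and C5ar1 of 2.21 (adjusted p = 0.0129, SE 0.66), each with kainate libraries all above the saline libraries.

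At day 7 in the PIZ, C4b was the only member called, against 0.150% of all genes that were upregulated DEG. It was at 22.8 to 30.1 CPM in saline mice and at 65.2, 121, 139 and 172 CPM in kainate mice, with mouse 21 the lowest (log2 fold change 2.29, adjusted p = 0.00255, SE 0.41). C3 was at 0.0495 to 0.363 CPM in saline mice (1 to 7 counts) and at 2.21, 2.22, 2.43 and 2.72 CPM in kainate mice. Its log2 fold change of 3.79 (SE 0.92) had an adjusted p = 0.0259, and C1qa was at a log2 fold change of 1.5 (adjusted p = 0.0872, SE 0.46). The groups did not overlap in 9 of 10 members, against 7.63% of genes, with C5ar1 as the exception at 0.317 to 1.13 CPM in kainate mice and 0.495 to 0.756 CPM in saline mice. The call of C4b was lost when kainate mouse 26 or 35, or any of the saline mice 20, 33, 34 and 89, was left out, and in these 6 fits 0.0138% to 0.0971% of all genes were upregulated DEG.

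At day 14 in the PIZ no member was called (0 of 10, with 2 at an unadjusted p under 0.05), against 0.00935% of all genes as upregulated DEG. DESeq2 also called 0 members there. The groups did not overlap in 2 members, against 3.70% of genes. They were C3, at 0.055 to 0.227 CPM in saline mice and 0.315 to 1.48 CPM in kainate mice, and C1qc, at 27.9 to 33.2 CPM and 36 to 52.8 CPM. C3 had a log2 fold change of 2.24 (adjusted p = 0.79, SE 1.02), on 1 to 5 counts in the saline libraries.

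The effect of kainate on the sides was then compared directly. At day 3 no member differed between EZ and PIZ in the main model (0 of 10, with 1 at an unadjusted p under 0.05, and 0 by DESeq2), against 0.0655% of all genes. With the mouse as a replicate block, which compares the sides within the same animals, C4b passed with a difference of -1.74 (adjusted p = 0.0053, SE 0.29), meaning a smaller effect in the EZ, and 0.178% of all genes were called. In the main model that difference was -1.78 (adjusted p = 0.0968, SE 0.56). The receptors had differences with the other sign, 1.12 (SE 0.78) for C3ar1 and 1.45 (SE 0.90) for C5ar1, which did not pass.

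The C4b difference at day 3 stood beside unequal controls. In the saline mice at day 3, C4b was 2.98 to 4.67 times as high in the EZ as in the PIZ of the same mouse, whereas in the kainate mice it was 1.05 to 1.31 times as high. The kainate levels of C4b were thus close on both sides, at 205 to 252 CPM in the EZ and 167 to 220 CPM in the PIZ. No member was called between the saline EZ and saline PIZ at day 3 in the main model (0 of 10, with 6 at an unadjusted p under 0.05), against 0.0281% of all genes, although C4b had a log2 difference of 2.03 (adjusted p = 0.03, SE 0.41) and C3 of 3.18 (adjusted p = 0.254, SE 0.83). With the mouse as a replicate block C4b passed in this comparison too, at 1.99 (adjusted p = 2.61e-05, SE 0.22), among 13 genes called of all tested. DESeq2 called 2 members and 0.127% of the genes it tested. The astrocyte marker Gfap was among the 6 genes called in the main model, higher in the saline EZ by 2.62 on the log2 scale (adjusted p = 0.00214, SE 0.42), and its part in the C4b difference was not tested.

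The saline difference between the sides was also looked for later. At day 7 the comparison of saline EZ with saline PIZ called 0% of genes and at day 14 likewise 0%, and 0 of 10 members at either day, with 2 and 1 members at an unadjusted p under 0.05. DESeq2 called 0 members at both days. C3 was higher in the EZ than in the PIZ of every saline mouse, by 2.11 to 20.4 times at day 3, 3.55 to 17.1 times at day 7 and 2.64 to 7.16 times at day 14, on saline PIZ values of at most 0.418 CPM. C4b was 1.56 to 2.40 times as high at day 7 and 1.35 to 1.75 times at day 14.

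**Figure D4:**
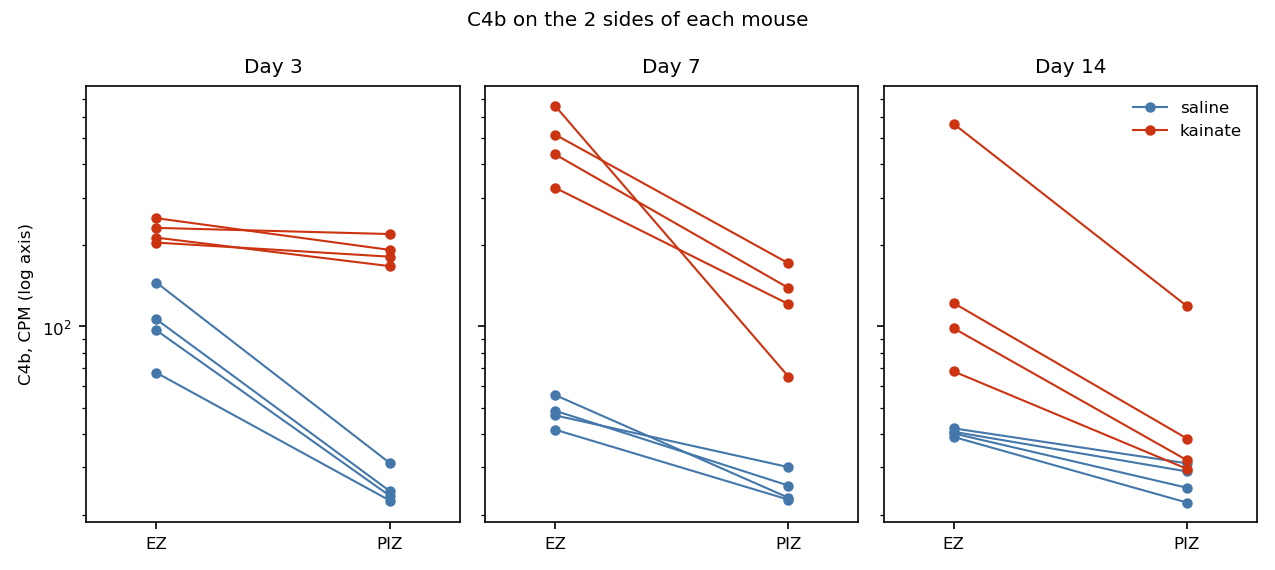
CPM of C4b (log axis) in the EZ and PIZ of each mouse, joined by a line, at days 3, 7 and 14 for saline (blue) and kainate (red). At day 3 the red lines are almost level, at 1.05 to 1.31 times, whereas the blue lines fall from EZ to PIZ by 2.98 to 4.67 times.

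At day 7 the effect of kainate was larger in the EZ for 5 members, against 7.00% of all genes. They were C1qa, with a difference of 2.72 (adjusted p = 0.00367, SE 0.64), C1qb with 2.52, C1qc with 2.71, C3ar1 with 3.24 (adjusted p = 0.00491, SE 0.81) and C5ar1 with 4.16 (adjusted p = 0.00425, SE 1.01). C3 and C4b, with differences of 1.94 (adjusted p = 0.315, SE 1.43) and 1.04 (adjusted p = 0.159, SE 0.56), did not pass. With the mouse as a replicate block Serping1 passed as well, at 1.86 (adjusted p = 0.00557, SE 0.45), with 6.95% of all genes called with the larger EZ effect. The count was 7 when kainate mouse 23 was left out, 6 for mouse 26, 1 each for saline mice 33 and 34, and 0 for mouse 20, 21, 35 or 89. The share of all genes called with the larger EZ effect was 10.7% and 9.28% without mice 23 and 26, 2.80% and 2.38% without mice 33 and 34, and at most 0.773% without mouse 20, 21, 35 or 89.

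At day 14 no member differed between the sides (0 of 10, with 7 at an unadjusted p under 0.05, and 0 by DESeq2), as was true of all genes (0%). The differences were all above 0, from 1.06 for Serping1 to 2.90 for C3, and without mouse 27 those of Serping1 and C5ar1 were at -0.01 and -0.31.

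Changes of the kainate effect over time were tested as differences of effects. From day 3 to day 7 in the EZ all 10 members had a higher effect, by 0.65 for C5ar1 to 2.38 for C3, but 0 were called (6 at an unadjusted p under 0.05), against 0.145% of all genes. C4b came nearest, at 2.21 (adjusted p = 0.0518, SE 0.56), and DESeq2 called 1 member and 0.509% of the genes it tested. From day 7 to day 14 in the EZ the effect was lower in all 10, by -0.59 for C3 to -2.15 for C3ar1, and 0 were called (6 at an unadjusted p under 0.05, and 0 by DESeq2), against 0.271% of all genes.

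Without mouse 27 the fall from day 7 to day 14 in the EZ was called in 10 of 10 members, from -2.02 (SE 0.44) for C1s1 to -3.96 (SE 0.82) for C5ar1, with C1qa at -3.24 (adjusted p = 1.84e-06, SE 0.45) and C4b at -2.08 (adjusted p = 5.07e-06, SE 0.31). In that fit 13.1% of all genes were called lower and 18.8% in either direction. In the PIZ the change from day 3 to day 7 was called in 0 members (1 at an unadjusted p under 0.05, and 0 by DESeq2), against 0.0234% of all genes. C5ar1 had the largest of these, -2.06 (adjusted p = 0.462, SE 1.01), and C1s1 alone was above 0, at 0.14 (SE 0.63).

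Other complement genes were counted by their place in the pathway, and each count is to be read against all genes tested. In the EZ 16.1% of these were upregulated at day 3, 20.6% at day 7 and 2.32% at day 14, and 8.61% and 11.9% were downregulated at days 3 and 7. In the PIZ at day 3 the shares were 7.12% up and 1.57% down. Of 13 genes of the classical and lectin routes, 8 were tested, the other 5 being recognition genes of the lectin route, Mbl1, Mbl2, Fcna, Fcnb and Colec10, each with at most 24 counts in any library. In the EZ, 2 rose at day 3 (C1rb and C1rl), 6 at day 7 (C2, C1rb, C1s2, C1rl, C4a and Masp1) and 1 at day 14 (C4a), and in the PIZ 2 at day 3 (C1rl and C4a), 1 at day 7 (C4a) and 0 at day 14. The 2 of 8 at day 3 in the EZ lie near the share of all genes. C4a was the most abundant of them, followed by Masp1 and C1rb. C4a, C1rb and C1s2 are near-identical copies of C4b, C1ra and C1s1. Reads of these members may be counted in the copies, whose calls are thus uncertain as separate genes. C4a had log2 fold changes of 1.06 (SE 0.36), 3.10 (SE 0.39) and 2.18 (SE 0.38) at days 3, 7 and 14 in the EZ and of 2.52 (SE 0.39), 1.92 (SE 0.38) and 0.78 (SE 0.38) in the PIZ. Without mouse 27 its EZ value at day 14 was 1.1 (adjusted p = 0.0206, SE 0.22) and was not called. Masp1, a lectin route protease, had 0.69 at day 3 and 1.22 (adjusted p = 4.81e-05, SE 0.24) at day 7 in the EZ. C2, the partner of C4 in the C3 convertase, had 3.21 (adjusted p = 1.94e-05, SE 0.59) at day 7 in the EZ.

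Of the alternative route Cfb and Cfp were tested, and Cfd had 0 counts in every library. Cfb, the alternative route's counterpart of C2, was at 0.195 to 0.461 CPM in saline mice and at 1.65 to 7.77 CPM in kainate mice of the EZ at day 3, and at 0.0471 to 0.306 and 5 to 12.8 CPM at day 7. Its log2 fold changes were 3.79 (SE 0.70), 6.22 (SE 0.80) and 3.41 (SE 0.84) at the 3 days in the EZ and 3.69 (adjusted p = 0.000951, SE 0.81) at day 3 in the PIZ, all called. At day 14 the kainate mice of the EZ were at 0.292 to 4.85 CPM with a median of 0.32, and without mouse 27 the value was 1.19 (SE 0.86) and was not called. Cfp, which encodes properdin, was not called in any comparison of kainate with saline, with log2 fold changes from -0.37 to 0.27. Of 7 terminal genes only Hc, which encodes C5, and C8g were tested, and Hc rose in the EZ at day 7 (log2 fold change 2.84, adjusted p = 0.000262, SE 0.64) and C8g in none.

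Of 7 other receptor genes, 5 were tested and all 5 rose in the EZ at days 3 and 7 (C5ar2, Itgam, Itgax, Itgb2 and Cd93). At day 14 in the EZ, and at day 3 in the PIZ, the same 3 were called, namely Itgam, Itgax and Itgb2, which encode the chains of the receptors CR3 and CR4 for C3 fragments. Without mouse 27 only Itgax was called in the EZ at day 14, at 2.67 (adjusted p = 0.00921, SE 0.49), whereas Itgam was at 0.55 and Itgb2 at 0.84. Itgam, the most abundant, had log2 fold changes of 1.52, 3.33 and 1.85 in the EZ and 2.56 (SE 0.42) at day 3 in the PIZ. Itgb2 had 2.55, 3.93 and 2.12 in the EZ and 2.5 at day 3 in the PIZ, and Cd93 had 1.92 and 1.70 at days 3 and 7 in the EZ. Itgax was the only receptor called in the PIZ at day 7, at 1.86 to 6.69 CPM in kainate mice and 0.198 to 0.493 CPM in saline mice (log2 fold change 3.61, adjusted p = 0.0013, SE 0.61). The difference between the sides at day 7 was called for C5ar2, Itgam and Itgb2, against 7.00% of all genes called with the larger EZ effect. These genes were not refitted with each mouse left out, whereas the count of members called there varied from 0 to 7.

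The regulators called were of both directions, as were the genes called overall. Among those reported here, Cfi, Susd4 and Csmd2 rose and Cd55, C4bp, Csmd3 and Sez6l2 fell in the EZ at day 3, and Cfi and Srpx2 rose and Cd46, Csmd3 and Sez6l2 fell at day 7, with 0 called at day 14. The genes that fell were 4 and 3 of the 18 regulators tested, beside 8.61% and 11.9% of all genes. Those that rose are to be read beside 16.1% and 20.6% of all genes. Cd55, a membrane inhibitor of the convertases, had -1.44 (adjusted p = 9.49e-05, SE 0.29) at day 3 in the EZ, and Cd46 had -0.88 (adjusted p = 0.00304, SE 0.25) at day 7. Csmd3 fell in the EZ at days 3 and 7 and in the PIZ at day 3, by 0.78, 0.76 and 0.83 on the log2 scale.

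Among the most abundant regulators, Clu, which encodes clusterin, was called in 1 of the 6 comparisons of kainate with saline, the PIZ at day 7, where it was at 626 to 736 CPM in saline mice and 841 to 1267 CPM in kainate mice (log2 fold change 0.65, adjusted p = 0.00585, SE 0.13). In the EZ it was at -0.46 on the log2 scale at day 3 and at 0.56 at day 7, both below the fold threshold, and the change from day 3 to day 7 there was called. Sez6l did not pass in any of the 6 comparisons, and Sez6l2 had -0.69 and -1.11 at days 3 and 7 in the EZ. Cfi and C4bp were called on few reads, with Cfi listed at 0 in every saline library of the EZ at day 3 and C4bp at most at 0.618 CPM there.

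**Figure D5:**
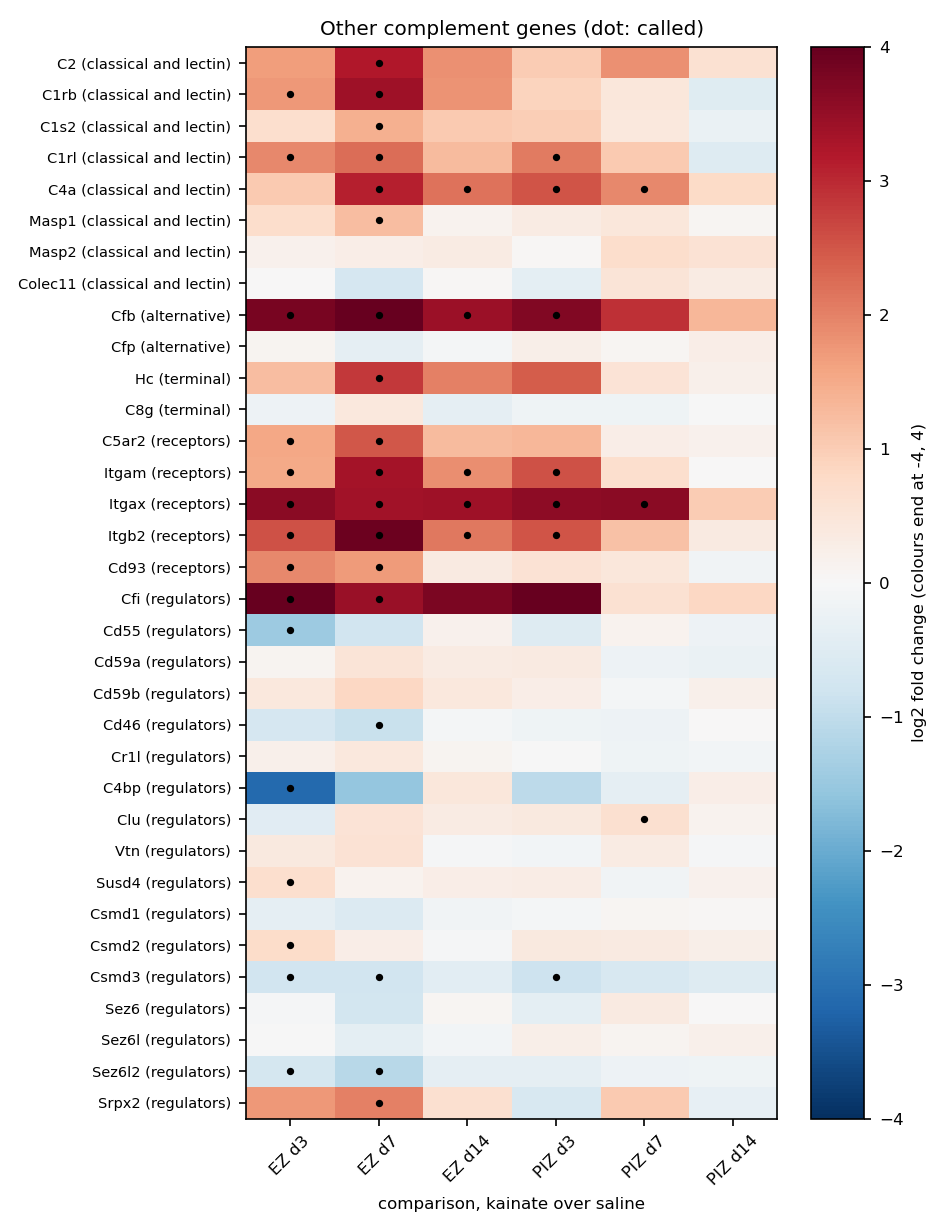
Log2 fold change of kainate over saline for the other complement genes reported, by zone and day, on a color scale from -4 (blue) to 4 (red), with a dot where the rule for a DEG was met, mouse 27 included. Classical, alternative and receptor genes are red where dotted, whereas the dotted regulators are of both colors.

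Markers of other cell types moved with these groups, and their counts too are to be read against the shares of all genes given above. The 12 microglial markers, with Csf1r among the most abundant, summed to 588 to 964 CPM in saline and 1358 to 2330 CPM in kainate mice of the EZ at day 3, to 498 to 541 and 1806 to 6303 CPM at day 7, and to 459 to 491 and 579 to 3255 CPM at day 14, where mouse 27 was the highest. In the PIZ they summed to 350 to 481 CPM in saline and 1049 to 1276 CPM in kainate mice at day 3, to 362 to 468 and 469 to 882 CPM at day 7, and to 374 to 422 and 410 to 502 CPM at day 14. In the EZ 7, 12 and 7 of the 12 were upregulated DEG at days 3, 7 and 14, and in the PIZ 11, 0 and 0. Without mouse 27, 0 of the 12 were called in the EZ at day 14. Their part in the change of the members was not tested.

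Set against that sum, C1qa counted for 8.71% to 11.7% in saline and 19.7% to 28.8% in kainate libraries of the EZ at day 3, and for 8.79% to 11.1% and 20.7% to 26.8% at day 7. In the PIZ at day 3 it was 7.58% to 8.64% and 14.5% to 15.6%. C4b at day 3 was 11.4% to 15.1% of the microglial sum in saline and 10.8% to 15.7% in kainate libraries of the EZ, which overlap, and 5.62% to 6.48% and 13.8% to 18.3% in the PIZ, which do not. Its saline and kainate shares did not overlap at day 7, at 7.88% to 10.3% and 10.4% to 18.1% in the EZ and 4.87% to 6.6% and 13.9% to 21.6% in the PIZ. At day 14 they were 8.27% to 8.81% and 11.8% to 17.3% in the EZ, without overlap, and 5.43% to 7.74% and 6.84% to 23.7% in the PIZ, with overlap. Serping1 was 1.08% to 1.39% and 1.13% to 1.88% in the EZ at day 7, with overlap, whereas at day 3 it was 1.25% to 1.55% and 2.5% to 3.56%, without overlap.

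Markers of infiltrating myeloid cells, led by Lyz2 and Cd44, summed to 27.6 to 65.8 CPM in saline and 220 to 1055 CPM in kainate mice of the EZ at day 3, and 6 of the 9 tested were upregulated DEG (Ccr2, Plac8, Lyz2, Cd44, Itgal and Chil3), while Ly6g had at most 3 counts in any library. At day 7 in the EZ they summed to 23.6 to 32.1 and 210 to 1664 CPM, with the same 6 upregulated, and at day 14 to 18.3 to 25.6 and 32.4 to 644 CPM, with Lyz2 and Cd44 upregulated and neither called without mouse 27. In the PIZ at day 3 they summed to 16.4 to 23.4 and 83.1 to 138 CPM, and only Lyz2 and Cd44 were called. Ly6c2, S100a8 and S100a9 were not upregulated DEG in the EZ at day 3 or 7. The sums rest mainly on Lyz2, Cd44 and Ly6c2 (mean log2 CPM 4.69, 3.11 and 3.09), with Ccr2 next at -0.09. Which cells held these reads was not tested. Of 8 astrocyte markers, Slc1a2 and Gfap being the most abundant, 4 rose and 2 fell in the EZ at day 3, 5 rose at day 7 and 2 at day 14, and in the PIZ 4 rose at day 3 and 0 later. Gfap had log2 fold changes of 1.28, 3.31 and 2.21 at the 3 days in the EZ and 3.66, 1.79 and 0.82 in the PIZ, and the last 2 of these did not pass. Without mouse 27, 0 astrocyte markers were called in the EZ at day 14, and Gfap was at 1.08 (adjusted p = 0.0789, SE 0.25).

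Of the other marker lists, border macrophages (Mrc1 and F13a1 the most abundant) had 2, 3 and 0 of 5 genes upregulated at days 3, 7 and 14 in the EZ and 0 in the PIZ. Endothelial markers (Flt1 and Slco1a4) had 3, 3 and 0 of 6, and fibroblast and meningeal markers (Igf2 and Dcn) 4, 5 and 0 of 6, again with 0 in the PIZ. Oligodendrocyte markers (Mbp among the most abundant) had 2 upregulated at day 7 in the EZ, Mag and Cnp. Blood markers (Hbb-bs and Hba-a1) had 0 called in each comparison, and of the choroid plexus markers (Kl and Ttr) 1 fell in the EZ at days 3 and 7. CA pyramidal markers (Spock1 and Mpped1) had 5 of 6 fall at day 3 and 6 of 6 at day 7 in the EZ, and granule cell markers (Prox1 and Stxbp6) 3 of 6 at each of these days, against 8.61% and 11.9% of all genes that fell. In the PIZ at day 3 the CA marker Fibcd1 and the granule cell markers Tdo2 and Calb1 fell, against 1.57% of all genes. Their part in the results was not tested either.

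Genes whose pattern was most like that of a member were found by Pearson correlation over the 12 group means of log2 CPM, which share mice between the sides, and are given as a description. Beside C1qa they were Fes, Itgb5 and Cd180 (each r = 0.997). C3 was most like Ly9 (r = 0.993), Cd14 (0.989) and Cd48 (0.985). C4b was most like C4a (0.999), Gm30329 (0.988) and Csf3r (0.985). Serping1 was most like Bach1 (0.998), Osmr (0.995) and Col16a1 (0.995). Among the members themselves, r was lowest for C4b and C5ar1 (0.855) and highest for C1qb and C1qc (0.999).

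C4b, C1ra and C1s1 each have a near-identical copy, C4a, C1rb and C1s2, to which reads may have been assigned in part. Of the windows of 36 bases in the canonical transcript, 44.3% of those of C4b occur in C4a, 54.4% of those of C1ra in C1rb and 32.7% of those of C1s1 in C1s2, whereas C1qa shares 0% with C1qb. C4a held 20.8% to 28% of the reads of its pair in all 48 libraries. C1rb held 15.4% to 42.1% and C1s2 11.1% to 54.5%, of fewer reads. C1ra, C1s1 and C4b, and likewise their copies, are thus uncertain as separate genes. With the copies summed, the numbers of members called were 8, 10 and 8 in the EZ and 7, 1 and 0 in the PIZ at days 3, 7 and 14, equal to those without summing.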

How the data were processed

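RNA from the EZ and PIZ of 24 mice was sequenced as strand-specific poly(A) libraries. The authors trimmed reads with fastp 0.20.1, aligned them to GRCm39 with HISAT2 2.2.1 and deposited raw counts per gene from featureCounts (Subread 1.6.4, Gencode M28), with multi-mapping reads kept at their primary alignment. Reads of near-identical copies may thus be split between genes.

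From these counts, edgeR 4.0.16 (R 4.3.3) with TMM factors, filterByExpr and quasi-likelihood tests was fitted on all 48 libraries and 12 groups, and p-values were adjusted by Benjamini-Hochberg over 21390 genes. The SE was the log2 fold change divided by the square root of F. DESeq2 1.42.0, limma-voom with library quality weights (limma 3.58.1), other scalings, filters and thresholds, and omission of each mouse were the alternatives, the values of genes other than the 10 without mouse 27 being added after the data were seen. Samples are separate mice, and the 2 libraries of a mouse are paired by origin. Their residuals had r from -0.054 to 0.376, over 0.1 in 20 of 24 mice. The test was tried on simulated data for the EZ at day 3 (21358 genes), where it called 74 of 100 genes changed 2-fold and 95 of 100 changed 4-fold. Each simulated gene had 1 mean over all groups apart from these changes, and the changed genes were drawn above a minimum average level. Far fewer genes were changed than the 5280 called in the data, so the rates hold for that setting only. Library totals of 17762656 to 25712975 counts limit the precision of the low members, the lowest of which had 1 count in a library.

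The 10 genes, the other complement genes and the marker lists were chosen with earlier results of these data known. All 10 genes were named, as were the 3 most abundant others of each role, with further called genes listed by name. Some genes of the lists are not reported here.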

Additional observations from a re-analysis of the deposited data

Results flagged for a closer look

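Within groups of 4 libraries, 7 values among 120 combinations of member and group lay far from the other 3 on the log2 scale. For independent combinations chance flags about 1 in 20, or 6. The members share libraries, so the combinations are not independent and that number is only a rough guide. Mouse 27 was high in the EZ of the day 14 kainate group for C1ra (12.6 CPM), C3 (98.5 CPM) and Serping1 (61.8 CPM). C1qc was at 61.9 CPM in mouse 34 of the EZ saline group at day 7. C1ra was at 3.43 CPM in mouse 39 and C3 at 0.055 CPM in mouse 31 of the PIZ saline group at day 14. Serping1 was at 9.94 CPM in mouse 28 of the EZ saline group at day 14.

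The kainate effect at day 7 differed between EZ and PIZ by 2.72 for C1qa, 2.52 for C1qb, 2.71 for C1qc, 3.24 for C3ar1 and 4.16 for C5ar1 on the log2 scale, each past the threshold in a test of the difference itself in edgeR.

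In the EZ of mouse 27 the microglial markers summed to 3255 CPM, against 579, 653 and 834 CPM in the other 3 kainate mice at day 14. The infiltrating myeloid markers summed to 644 CPM, against 32.4, 42 and 79.0 CPM. The choroid plexus markers summed to 1.72 CPM, against 13.1 to 26 CPM. That sum is mostly Kl (mean log2 CPM 3.89 over all libraries, against -0.54 for Ttr), and its reads were not traced to a cell type. The part of these markers in the level of the members was not tested.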

How the results depend on the processing

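Of 2833 member values under other settings, 2634 kept their direction and side of the threshold, 91 passed it newly, 84 no longer passed and 24 changed sign, none of the last being called in either fit. The counts of members called at days 3 and 7 in the EZ and day 3 in the PIZ stayed within 1.5 times in all alternatives. In the EZ at day 14, where 8 were called, the count was 5 with glmTreat, 0 with only the groups compared, 2 with limma-voom with library quality weights (the weights apply wherever limma-voom is named) and 2 to 10 when 1 mouse was left out. The first 3 called 137, 0 and 58 of all genes. In the PIZ at day 7 it was 1, and became 2 at an adjusted p under 0.05, 0 with glmTreat, 3 with only the groups compared, 7 with limma-voom, 2 with DESeq2 and 0 to 1 when 1 mouse was left out. The first 5 called 229, 4, 154, 822 and 198 of all genes. For the difference between sides at day 7 it was 5, and became 8 at an adjusted p under 0.05, 0 with glmTreat, 8 with only the groups compared, 8 with limma-voom and 0 to 7 when 1 mouse was left out. The first 4 called 4387, 0, 1159 and 5126 of all genes. For the change from day 3 to 7 in the EZ it went from 0 to 6 with limma-voom and 1 with DESeq2, where these called 1225 and 100 of all genes, and from day 7 to 14 from 0 to 10 with limma-voom and 0 to 10 when 1 mouse was left out, 10 being without mouse 27. Over all genes limma-voom called 6301 of 21390 there and the fit without mouse 27 called 4087 of 21688. In saline mice at day 3 it went from 0 to 1 at an adjusted p under 0.05, 1 with only the groups compared, 4 with limma-voom and 2 with DESeq2, where these called 11, 21, 99 and 24 of all genes. For the difference between sides at day 3 limma-voom gave 1, and 1879 of all genes. The cause was not tested.

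With the mouse as a replicate block, 1 member was called for the difference between sides at day 3 and 1 in saline mice at day 3, C4b in both, and 6 for the difference at day 7, with Serping1 added, while of all 21390 genes it called 38, 13 and 2356. The block was fitted only for the comparisons between sides, and among these it changed no other call of a member.

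Values that changed sign were as follows. With limma-voom and quality weights C5ar1 was at -0.069 in the EZ at day 14, at -0.754 for the difference between sides at day 14 and at -0.132 in saline mice at day 7, and C1ra was at 0.318 in the PIZ at day 14. With only the groups compared C5ar1 was at -0.000108 in saline mice at day 7, and with copies summed C1s1 was at -0.123 for the change in the PIZ. When 1 mouse was left out, C5ar1 ranged from -0.152 to 0.397 in the PIZ at day 7, and in the PIZ at day 14 C1ra ranged from -0.283 to 0.473, C1s1 from -0.0157 to 0.414 and C3ar1 from -0.0201 to 0.265. The differences between sides at day 3 ranged from -0.134 to 0.381 for C1qa, -0.0895 to 0.605 for C1s1 and -0.118 to 0.345 for Serping1, and at day 14 from -0.307 to 1.97 for C5ar1 and -0.00872 to 1.3 for Serping1. The change in the PIZ ranged from -0.0607 to 0.347 for C1s1. In saline mice C1ra ranged from -0.457 to 0.632 at day 3, -0.41 to 0.182 at day 7 and -0.755 to 0.209 at day 14, and at day 7 C1s1 from -0.131 to 0.249 and C5ar1 from -0.216 to 0.152.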

Other observations

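The ratio of C4b to C3 differed widely between groups when both were taken as CPM per kb. In the EZ of saline mice its median was 48.1, 37.6 and 52.9 at days 3, 7 and 14, with a range of 22.3 to 93.8 over the 3 groups. In the EZ of kainate mice it was 8.73, 6.57 and 14.8, with a range of 5.44 to 18.4. In the PIZ the medians were 94.1, 208 and 135 in saline mice and 23.8, 47.9 and 61.6 in kainate mice, and the saline ratios rest on few reads of C3.

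C4b relative to C1qa, again per kb, was at 0.258 to 0.296 in saline mice and 0.0753 to 0.142 in kainate mice of the EZ at day 3, and at 0.141 to 0.171 and 0.178 to 0.252 in the PIZ. At day 7 it was 0.179 to 0.2 and 0.0792 to 0.175 in the EZ, and 0.110 to 0.173 and 0.226 to 0.281 in the PIZ. At days 3 and 7 the saline and kainate ranges did not overlap, with the kainate mice lower in the EZ and higher in the PIZ. At day 14 they overlapped, at 0.167 to 0.178 and 0.15 to 0.235 in the EZ and 0.115 to 0.208 and 0.18 to 0.392 in the PIZ. These ratios were chosen after their values were seen and were not tested.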
